A study of Mus musculus with 5 samples.

Results

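Genes of the Wnt pathway were measured on Affymetrix expression arrays in 5 Neuro2A lines, 1 array for each. Neuro2A is an established line of mouse neuroblastoma cells. The members were 48 genes listed by role as Wnt ligands, receptors, inhibitors or effectors, and they were taken as every probe set whose platform annotation gives exactly that 1 gene symbol. Of the 48 genes, 47 were found among the 18193 genes named in this way, with 112 of the 45037 probe sets left after the array's own controls were removed. Tcf7 was not analysed here, since no probe set was annotated with that symbol alone.

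The lines were made to ask how expression depends on KDM7, the histone demethylase that Kdm7a encodes. Parental Neuro2A without a vector, Neuro2A carrying an empty vector and Neuro2A with a vector for EGFP knock down formed the control arm of 3 lines. The knockdown arm held 2 stable lines, KDM7 KD1 and KDM7 KD2, made with different vectors against KDM7. All 5 are Neuro2A, and the labels do not say whether a stable line is a clone or a pool, or whether the lines were cultured separately. Each arm's lines stood in for replicates, so p-values measure only the spread between these 5 arrays, and their small number limits the precision of every value. Signals are given below in a fixed order, for the controls as parental, empty vector and EGFP knockdown, and for KDM7 knockdown as line 1 and line 2.

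Kdm7a checked the labels. Its probe set 1435867_at had signals of 659.5, 648 and 872 in the controls against 231 and 143 in the knockdown lines, which is 3.96-fold lower by mean log2 values. The other 2 kept probe sets of Kdm7a were 3.64-fold and 4.38-fold lower. Of the 21 sympathoadrenal neuroblastoma markers looked for, 19 were on the array and 15 passed the brightness filter. The summed signal of all 19 lay between 61192 and 67939.9 in all 5 lines. It came mostly from Stmn2, Hand2, Chgb and Tubb3, so it says little about the dimmer markers. Single markers differed: both KDM7 knockdown lines were below every control for 5 of the 15 (Chga, Ddc, Elavl4, Gata3 and Isl1) and above for 1 (Chgb), against 10.2% and 12.7% of all genes. Gata3 was 3.20-fold lower and Isl1 3.06-fold lower by mean log2 values, and their part in the results below was not tested. Th, Nefl, Nefm and Hand1 did not pass the filter. Blood and immune markers did not pass either (0 of 5 measured), nor did embryonic stem markers (0 of 2). Schwann and glial markers passed for 1 of 4 genes on the array (Erbb3). Epithelial markers passed for 2 of 4 (Krt8 and Epcam). The summed signal of the 4 epithelial genes was 120 in the parental line and 191 to 369 in the vector-carrying lines. Markers of mesenchymal or smooth muscle cells passed for 4 of 10 genes. The summed signal of all 10 was 5275 in the parental line, mostly from Acta2 and Myl9, and 219 to 389.6 in the vector-carrying lines.

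Wnt proteins are secreted ligands that bind Frizzled receptors and the co-receptors LRP5 and LRP6. In the canonical branch, binding recruits Dishevelled and Axin to the membrane, the complex of Axin, APC and GSK3 stops marking beta-catenin for destruction, and beta-catenin enters the nucleus to act with TCF and LEF factors. Secreted inhibitors such as Dickkopf and SFRP proteins act outside the cell, and Axin2, Lef1, Dkk1, Nkd1 and Znrf3 are known as targets of the pathway that feed back on it. Wnt signals pattern the dorsal neural tube and induce the neural crest, from which neuroblastoma arises.

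A probe set was kept for testing when its mean log2 signal over the 5 arrays was at or above the median of all probe sets, a signal of 40.5. This kept 55 of the 112 member probe sets and 28 of the 47 genes, and the other 19 genes are described as dim. A gene with several kept probe sets is represented by the one whose mean log2 signal is highest, and for members the others are given beside it. A log2 change is the mean log2 signal of the 2 KDM7 knockdown lines minus that of the 3 control lines, and its error is limma's standard error (SE). No Wnt member passed the test in this comparison, at a Benjamini-Hochberg adjusted p under 0.05 in limma over all 22519 kept probe sets. The share passing over all of them was 0%, so this test made no call for any gene, the targeted one included (Kdm7a 1435867_at, log2 change -1.99, SE 0.27, unadjusted p = 0.000455, adjusted p = 0.855 in limma).

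Below that threshold, 5 of the 28 genes had both knockdown lines below every control line, namely Dkk1, Axin2, Fzd5, Ctnnb1 and Znrf3, a share of 17.9% against 10.2% of all 10867 genes measured the same way. Another 3 had both above every control line, namely Wnt7a, Fzd3 and Dkk3, a share of 10.7% against 12.7% of all genes. Leaving out 1 array raised the 8 such genes to between 12 and 14 (14 without the empty vector line, 13 without the EGFP knockdown line or knockdown line 1), while the share over all genes rose from 22.8% to between 37.1% and 43.9%. With each array centred on its median signal, 9 members lay below and 1 above. Together they were 35.7% of the members, against 23.2% of all genes on one side in that setting. The centring lowered the median log2 change of all kept probe sets from 0.03 to -0.08. By size, 3 genes were at least 1.5-fold lower by mean log2 values in the knockdown lines (Dkk1, Tcf7l2 and Wnt5a, against 2.80% of all genes) and 1 was higher (Wnt7a, against 3.84%). The median log2 change of the 28 genes was -0.06, beside 0.03 for all genes, and single genes ranged from -0.76 to 0.78. Before adjustment, 6 of the 55 member probe sets had a limma p under 0.05, against 5.56% of all kept probe sets. These 6 belonged to Dkk1 (2 probe sets), Axin2, Ctnnb1, Tcf7l2 and Dvl1. Probe sets of 1 gene are not independent. Over the 1 probe set that represents each gene, 2 of the 28 members had such a p in limma, Dkk1 and Axin2. That was 7.14%, near the 4.66% of all genes. In whole cultures such as these, fewer cells of a type and less RNA per cell cannot be told apart.

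**Figure D1:**
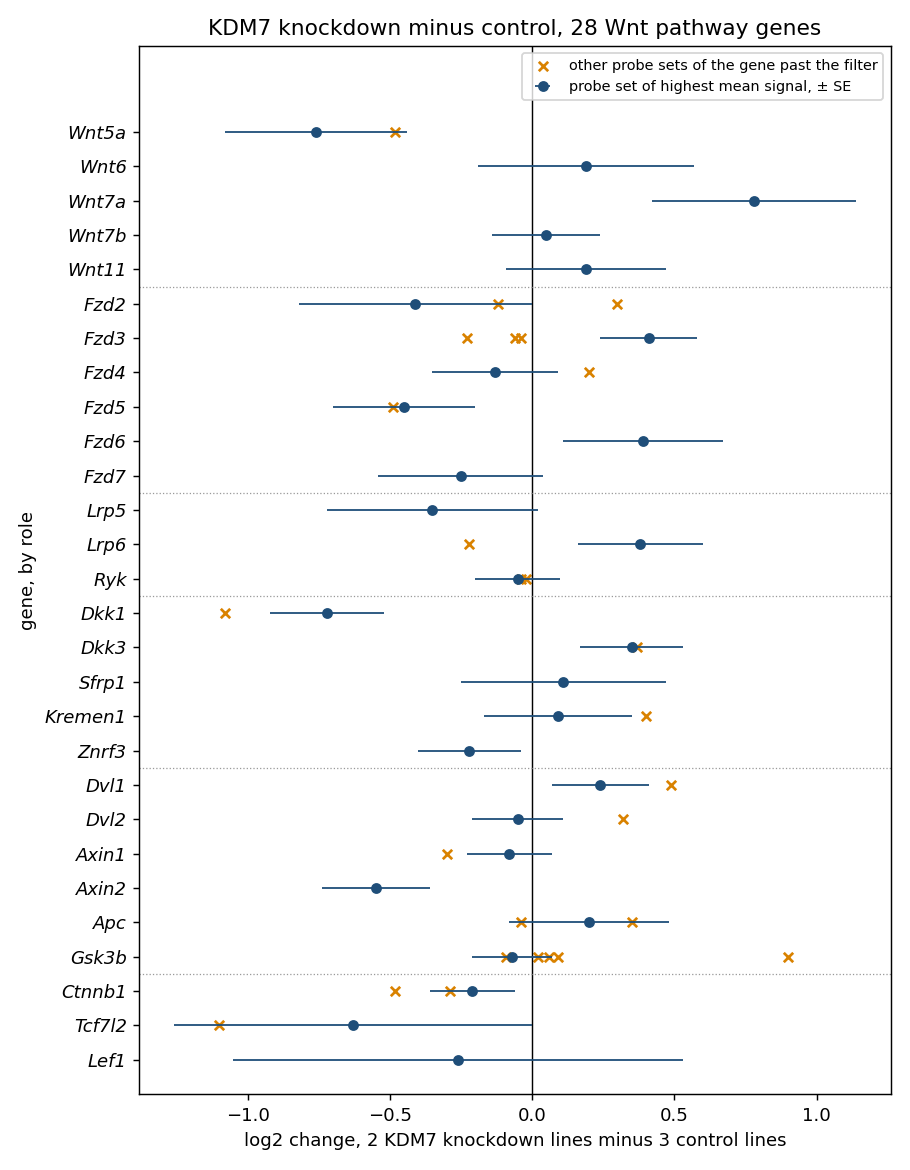
Log2 change between the 2 KDM7 knockdown lines and the 3 control lines for 28 Wnt pathway genes, grouped by role. Circles with bars are the probe set of highest mean signal with its SE from limma and crosses are other kept probe sets of the same gene. Dkk1 (-0.72 and -1.08), Axin2 (-0.55) and Ctnnb1 (-0.21, -0.29 and -0.48) lie left of 0 with every kept probe set. Fzd5, Wnt5a and some others do so too. The kept probe sets of Fzd2, Fzd3, Fzd4, Lrp6, Dvl2, Apc and Gsk3b lie on both sides.

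Dkk1, a secreted inhibitor that binds LRP5 and LRP6, gave the clearest separation. Its probe set 1420360_at had signals of 8781, 6545 and 8120.1 in the controls against 4168 and 5287. Both knockdown lines were below all 3 control lines. The arms had means of 7815 ± 1149 (SD, n = 3) and 4728 ± 792 (SD, n = 2), a 1.65-fold difference by mean log2 values (log2 change -0.72, SE 0.20, unadjusted p = 0.0133, adjusted p = 0.879 in limma). Probe set 1458232_at of Dkk1 read the same order of lines with signals of 2468, 1746 and 2202 in the controls against 845 and 1179, a 2.12-fold difference (log2 change -1.08, SE 0.23, unadjusted p = 0.00438, adjusted p = 0.879 in limma). Both probe sets read 1 gene and are not independent. In the 2 probe sets alike the parental line was highest, the empty vector line lowest of the controls and knockdown line 1 lowest of all. Leaving out each array in turn moved the first probe set between -0.90 and -0.55, with -0.63 without the parental line.

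Axin2, a scaffold of the beta-catenin destruction complex and a widely used readout of canonical Wnt signalling, also had both knockdown lines below every control. Its probe set 1436845_at had signals of 167, 132 and 166 in the controls against 118 and 93.8. The groups did not overlap, but the empty vector line stood closer to knockdown line 1 than to either other control. The log2 change was -0.55 (SE 0.19, unadjusted p = 0.0304, adjusted p = 0.879 in limma), with -0.50 when the parental line was left out and -0.39 without knockdown line 2. The other Axin2 probe set, 1421341_at, was dim, with signals from 0.912 to 35.0.

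The sequence before the transcription start is shown for these 2 genes, since they are known pathway targets that were low in the same lines and one of them carries the words that TCF and LEF factors recognise. The sequences are the 250 bases upstream of the annotated start in RefSeq on assembly GRCm38.p6, written 5′ to 3′ on the gene's strand. Capitals mark the letters CTTTG followed by AA, AT, TA or TT, searched on either strand. Dkk1 lies on the minus strand at chr19:30549497-30549746 and Axin2 on the plus strand at chr11:108920099-108920348.
Dkk1: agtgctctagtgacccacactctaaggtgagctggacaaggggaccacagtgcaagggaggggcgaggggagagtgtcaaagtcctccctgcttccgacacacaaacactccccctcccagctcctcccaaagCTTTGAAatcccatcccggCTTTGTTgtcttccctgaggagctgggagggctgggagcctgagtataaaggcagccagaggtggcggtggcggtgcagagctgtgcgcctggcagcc
Axin2: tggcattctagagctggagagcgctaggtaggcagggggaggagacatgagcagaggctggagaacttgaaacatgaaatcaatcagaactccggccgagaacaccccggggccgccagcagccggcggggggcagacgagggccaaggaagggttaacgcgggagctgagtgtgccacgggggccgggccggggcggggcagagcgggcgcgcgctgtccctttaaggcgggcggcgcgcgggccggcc

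The Dkk1 window held 2 such words, CTTTGAA from 117 to 111 and CTTTGTT from 98 to 92 bases before the start. The Axin2 window held 0. Over all 32851 RefSeq windows of this length, 14.8% held at least 1 of the words and 1.43% held at least 2. The Dkk1 window was shown partly because it held the words, so these shares are no test of it. Windows were given for 15 of the 28 members, and 5 of these, Dkk1, Fzd7, Lef1, Tcf7l2 and Wnt11, had a word in at least 1 of their windows. The 15 genes had 21 windows between them, so this count of genes cannot be set against the shares of single windows. A match is a description of the letters and not evidence of binding, and a link between the words and the signals was not tested.

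Over the 5 inhibitors kept the median log2 change was 0.09, and those beside Dkk1 went both ways. Dkk3, a Dickkopf family member whose role in Wnt signalling is less settled, lay the opposite way from Dkk1. Its probe set 1417312_at had signals of 2689, 2049.8 and 2712 in the controls against 3191 and 3081. Both knockdown lines were above all controls, by 1.27-fold on average (log2 change 0.35, SE 0.18, adjusted p = 0.884 in limma). It was 0.22 without the empty vector line. Probe set 1448669_at of Dkk3 had a log2 change of 0.37 (SE 0.24) without overlap. After median centring both lines were no longer above every control line, although the first probe set kept its direction.

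Znrf3, a membrane ubiquitin ligase that removes Frizzled receptors, had signals of 279, 272 and 353 in the controls against 243 and 270.4. The groups did not overlap, but knockdown line 2 lay next to the empty vector line (log2 change -0.22, SE 0.18, adjusted p = 0.918 in limma). It was -0.10 without the EGFP knockdown line and -0.14 without knockdown line 1. Kremen1, a receptor that acts with Dkk1, overlapped between the arms at 235 to 386 in the controls against 277 and 332. Its log2 change was 0.09 (SE 0.26), and 0.40 (SE 0.20) by its dimmer kept probe set, also with overlap. Sfrp1, a secreted protein that binds Wnts, had 56.1, 28.0 and 56.3 in the controls against 42.9 and 53.8. The empty vector line was the low one there, so that the arms overlapped and the log2 change of 0.11 (SE 0.36) turned its sign under 5 alternatives.

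Beta-catenin itself, encoded by Ctnnb1, had both knockdown lines below every control by all 3 of its probe sets, with small differences. Probe set 1420811_a_at had signals of 12197, 9917 and 10739 in the controls against 9451 and 9398. The knockdown lines were lowest, next to the empty vector line, and the parental line stood above the rest. Its log2 change was -0.21 (SE 0.15, adjusted p = 0.905 in limma), and -0.13 without the parental line. The dimmer probe sets 1450008_a_at and 1430533_a_at had -0.29 (SE 0.17) and -0.48 (SE 0.15), also without overlap.

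The nuclear effectors, Ctnnb1 and its DNA-binding partners Tcf7l2 and Lef1, had a median log2 change of -0.26. They had a median 4.61-fold between the highest and the lowest line, beside 1.43-fold for all genes and 1.33 to 1.97 for the other role groups. Lef1 1454734_at had signals of 291, 48.8 and 193 in the controls against 88.8 and 154. The parental line was 5.97-fold above the empty vector line, and both knockdown lines lay between these 2 controls. Its log2 change of -0.26 (SE 0.79) was therefore within the spread of the controls, and it turned to 0.27 when the parental line was left out and to 0.14 without knockdown line 1.

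Tcf7l2 1429428_at, for a TCF factor widely expressed in the brain, had signals of 215, 378 and 82.0 in the controls against 122 and 121. Here the empty vector line was the highest and the EGFP knockdown line the lowest, the reverse of their order for Lef1. The log2 change was -0.63 (SE 0.63, adjusted p = 0.931 in limma), between -1.23 without the EGFP knockdown line and -0.13 without the empty vector line. Probe set 1429427_s_at put both knockdown lines below all controls, with 116, 158 and 70.6 against 57.4 and 44.7 (log2 change -1.10, SE 0.36, unadjusted p = 0.0255, adjusted p = 0.879 in limma). These 2 probe sets disagree on whether the arms overlap, and the ending of the second name marks probe sets that can match more than 1 transcript. Tcf7l1 was dim, and its 2 probe sets differed. Probe set 1450117_at had 14.7 to 21.1 in the controls against 50.5 and 59.9 in the knockdown lines, while 1436207_at had 17.6 to 38.4 against 19.6 and 35.1.

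**Figure D2:**
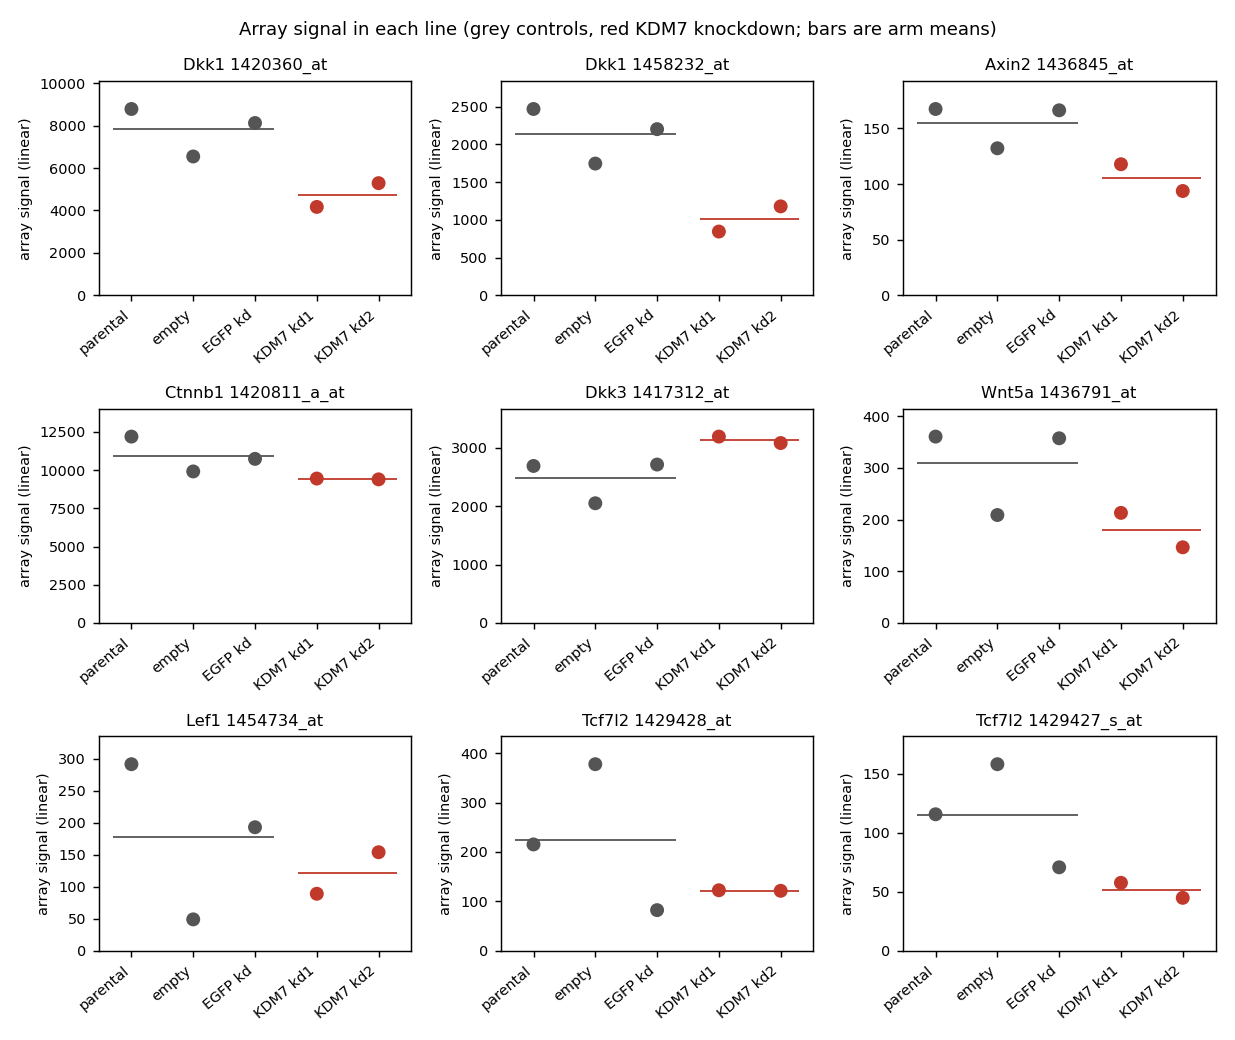
Array signal (linear axis from 0) of 9 probe sets of Dkk1, Axin2, Ctnnb1, Dkk3, Wnt5a, Lef1 and Tcf7l2 in each of the 5 Neuro2A lines, 1 array each. Grey points are control lines, red points KDM7 knockdown lines, and horizontal bars the arithmetic means of 3 and 2 lines. Red points lie below all grey points for Dkk1, Axin2 and Ctnnb1 and above them for Dkk3, and among them for Lef1, where controls run from 48.8 to 291.

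Of the 10 ligand genes, 5 were kept, with a median log2 change of 0.19. Wnt5a, best known for signalling without beta-catenin through ROR receptors, had signals of 361, 209 and 357 in the controls by probe set 1436791_at against 213 and 146. Knockdown line 1 lay just above the empty vector line, so the arms overlapped, although 2 of 3 controls were far above both (log2 change -0.76, SE 0.32, unadjusted p = 0.0573, adjusted p = 0.879 in limma). It was -0.49 without knockdown line 2. Probe set 1448818_at of Wnt5a did not overlap, with 98.2 to 131 in the controls against 95.5 and 75.7 (log2 change -0.48, SE 0.21).

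Wnt7a 1447647_at had signals of 49.8, 26.2 and 53.2 in the controls against 83.7 and 59.4. Both knockdown lines were above every control line, but all 5 signals lay near the 40.5 of the filter (log2 change 0.78, SE 0.36, adjusted p = 0.879 in limma). It was 0.45 without the empty vector line and 0.47 with 32 added to each signal. The other kept ligands overlapped between the arms. Wnt7b ran from 135 to 157 in the controls against 127 and 173, Wnt11 from 32.4 to 55.5 against 43.6 and 45.3, and Wnt6 from 44.6 to 87.7 against 50.6 and 87.4.

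Dim ligands were Wnt1, Wnt3, Wnt3a, Wnt4 and Wnt5b, whose signals over all their probe sets ran from 3.13 to 62.6. Both genes for ligand secretion were dim as well. Porcn, the acyltransferase that attaches a lipid to Wnts, had signals from 8.98 to 26.6 by 1 probe set. Wls, the carrier that takes Wnts to the cell surface, had signals from 0.406 to 26.7 by 4 probe sets, whose order of lines differed. One of them, 1437434_a_at, had 22.9, 8.24 and 19.8 against 3.28 and 16.1. No detection calls were used here, so a dim signal does not show that a transcript is absent, and no change is given for these genes.

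Among Frizzled receptors, 6 of 9 genes were kept and their directions differed, with a median log2 change of -0.19. Fzd5 1455604_at had signals of 365, 492 and 621 in the controls against 352 and 352. Both knockdown lines were lowest, with the parental line next to them (log2 change -0.45, SE 0.25, adjusted p = 0.887 in limma). It was -0.27 without the EGFP knockdown line. The second probe set of Fzd5 had -0.49 (SE 0.29) with overlap.

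Fzd3, which acts in planar polarity and axon guidance, had signals of 655, 494 and 563 in the controls against 729.8 and 773 by probe set 1434788_at. Both knockdown lines were above every control line (log2 change 0.41, SE 0.17, adjusted p = 0.879 in limma), but the other 3 kept probe sets had -0.04, -0.06 and -0.23 with overlap. The direction for Fzd3 thus rests on 1 of 4 probe sets. After median centring that probe set no longer had both knockdown lines above every control line, although it kept its direction. Fzd2 1418532_at was high in 1 line only, at 244 in the EGFP knockdown line against 96.8 to 132 in the other 4. Its other kept probe sets had the EGFP knockdown line highest too, at 273 and 121, and the log2 change between the arms was -0.41 (SE 0.41), -0.12 and 0.30 by the 3 probe sets. Without that line the first was -0.04, and it was -0.71 without the empty vector line.

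The remaining Frizzled genes overlapped between the arms. Fzd6, with 719, 390.0 and 571 in the controls against 729 and 696, was low in the empty vector line. Fzd7, with 742, 428 and 659.9 against 578 and 429.9, was low there and in knockdown line 2. Fzd4 had 138, 141 and 203 against 139 and 150.3, with the EGFP knockdown line high. Its log2 change was -0.13 (SE 0.22), and its dimmer kept probe set lay the other way with 0.20 (SE 0.29). Fzd1, Fzd8 and Fzd9 were dim, with signals from 1.74 to 54.4 over all probe sets.

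All 3 co-receptor genes overlapped between the arms, as did most genes (22.8% lay on one side), and their median log2 change was -0.05. Lrp6 1428500_at had 586, 849 and 746 in the controls against 1044 and 840.4, and its second probe set, with 275, 430.1 and 349 against 318 and 275, lay the other way. Lrp5 was near the filter at 44.1, 39.7 and 56.5 in the controls, with 53.7 in knockdown line 1 and 24.4 in line 2. Line 1 lay within the range of the controls and line 2 below it, and the log2 change of -0.35 (SE 0.37) became 0.22 without line 2. Ryk, a receptor with an inactive kinase domain, had 1563, 1562 and 1332 in the controls against 1376 and 1482 (log2 change -0.05, SE 0.15). The other kept probe sets of Ryk had -0.04 and -0.02. Ror1 and Ror2, receptors for Wnt5a, were dim, with signals from 0.617 to 67.0 and from 1.63 to 8.46. Of Ror1, knockdown line 1 had the highest signal by all 3 probe sets, at 67.0, 25.0 and 12.3.

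Cytoplasmic genes varied least of all role groups, with a median 1.33-fold between the highest and lowest line over 6 genes and a median log2 change of -0.06. Dvl1, a Dishevelled protein that relays the receptor signal, had 3026, 3256 and 3573 in the controls against 3449.7 and 4353 (log2 change 0.24, SE 0.17). Its probe set 1450978_at had 561, 649.6 and 605 against 747 and 959, without overlap (log2 change 0.49, SE 0.17, unadjusted p = 0.0344, adjusted p = 0.879 in limma). Knockdown line 2 was highest by both, and the first probe set had 0.07 without that line and 0.41 without line 1.

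Axin1, the constitutive relative of Axin2, had 626, 654 and 746 in the controls against 603 and 673, with overlap, and its dimmer probe set had -0.30 (SE 0.16) without overlap. Gsk3b, the kinase that marks beta-catenin, had 2543, 2717 and 2900.4 against 2692 and 2482 by probe set 1454958_at, also with overlap. Of its other 5 kept probe sets 4 had log2 changes between -0.09 and 0.09. The remaining one, 1439931_at, had 0.90 (SE 0.48) with both knockdown lines above all controls, and was low in the parental line at 37.8 against 86.2 to 141. Apc, the scaffold of the destruction complex, was at 1249, 1116 and 696 in the controls against 1118 and 1157, with the EGFP knockdown line low. A second Apc probe set, 1435543_at, had 457, 637 and 524 against 668 and 694 without overlap (log2 change 0.35, SE 0.19). The dimmest kept Apc probe set, 1450056_at, had -0.04 (SE 0.37) with overlap. Dvl2 had 289, 357 and 312 against 295 and 319.7 (log2 change -0.05, SE 0.16). Its dimmer kept probe set lay the other way with 0.32 (SE 0.39). Dvl3 was dim with signals from 5.17 to 36.1, and so was Nkd1, a Dishevelled-binding inhibitor, with 1.69 to 57.9 over 4 probe sets. Dim inhibitors were Dkk2 (1.67 to 25.6), Sfrp2 (1.41 to 13.0), Sfrp5 (3.82 to 29.4) and Rnf43 (0.886 to 2.12), each a range of signals over its probe sets and lines.

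**Figure D3:**
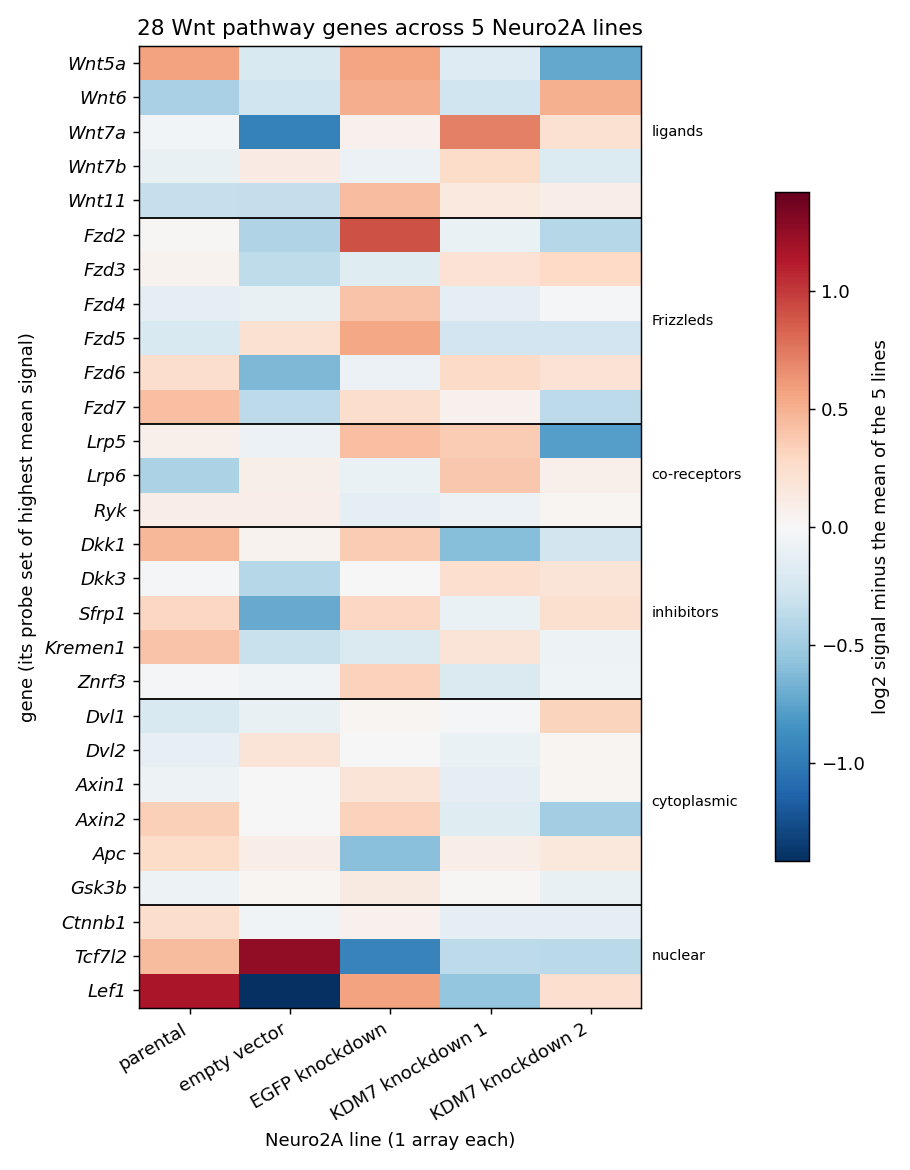
Log2 signal of 28 Wnt pathway genes in each of the 5 Neuro2A lines, minus the gene's mean over the 5 lines (red higher, blue lower), 1 probe set per gene, in blocks by role. The strongest colours are Lef1 in the empty vector and parental lines, at signals of 48.8 and 291, and Tcf7l2 in the empty vector line at 378, all of them control lines.

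The highest and the lowest line were also found for each gene, whichever arm they belonged to. With 3 of the 5 lines in the control arm, an extreme often falls on a control line. The highest and the lowest of the 5 lines differed at least 2-fold for 8 of the 28 genes, Dkk1, Fzd2, Lef1, Lrp5, Sfrp1, Tcf7l2, Wnt5a and Wnt7a, a share of 28.6% against 17.0% of all genes. The median fold between highest and lowest line was 1.75 for the members. The empty vector line was the lowest of the 5 for 10 members (19.5% of all genes), including Dkk3, Fzd2, Fzd3, Fzd6, Fzd7, Lef1 and Sfrp1, and the highest for 2 (19.1%). The EGFP knockdown line was the highest for 10 (22.2% of all genes), including Fzd2, Fzd4, Fzd5 and Znrf3, and the lowest for 3 (20.5%). The empty vector line was the control nearest to both knockdown lines for Dkk1, Axin2, Ctnnb1 and Wnt5a, and the farthest from them for Dkk3, Fzd3 and Wnt7a.

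**Figure D4:**
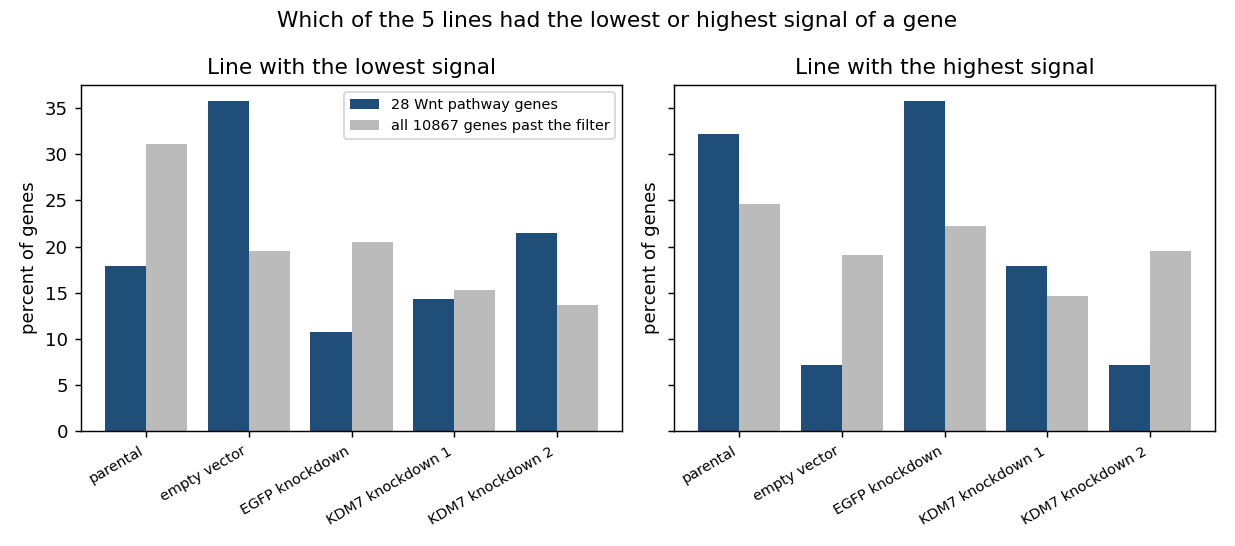
Percent of genes for which each of the 5 Neuro2A lines had the lowest (left) or the highest (right) signal, for 28 Wnt pathway genes (dark bars) and all 10867 genes past the filter (grey bars). The empty vector line was lowest for 10 of 28 members and the EGFP knockdown line highest for 10, against 19.5% and 22.2% of all genes.

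The parental line, which carries no vector, was set against the 4 vector-carrying lines, with its 1 array assumed to vary like the others. No member passed in limma, where 0.124% of all kept probe sets did (28, and 0 when any 1 of the vector-carrying lines was left out), and the lowest adjusted p of a member probe set was 0.12 in limma (Gsk3b 1439931_at, a log2 difference of -1.61). Over the 1 probe set that represents each gene it was 0.314 in limma (Lrp6). At an unadjusted p under 0.05 there were 5 of 55 member probe sets, against 15.6% of all. The parental line was the highest of the 5 for 9 members (24.6% of all genes), namely Apc, Axin2, Ctnnb1, Dkk1, Fzd7, Kremen1, Lef1, Ryk and Wnt5a, and the lowest for 5 (31.1%). Differences of the parental line from the mean of the others are given on the log2 scale for the members where it was highest or lowest. They were 1.45 (SE 0.75) for Lef1, 0.72 (SE 0.46) for Wnt5a, 0.59 (SE 0.37) for Dkk1, 0.42 (SE 0.32) for Axin2, 0.31 (SE 0.16) for Ctnnb1, 0.12 (SE 0.16) for Ryk and -0.26 (SE 0.21) for Dvl1. Fzd7 had 0.53 (SE 0.30), Kremen1 0.50 (SE 0.23) and Apc 0.32 (SE 0.32). On the low side, Wnt6 had -0.58 (SE 0.40), Lrp6 -0.56 (SE 0.22), Fzd4 -0.18 (SE 0.25) and Dvl2 -0.15 (SE 0.17). The KDM7 knockdown lines are part of the comparison group, so these values and those between the arms share arrays. Acta2 and Myl9, named above, were far higher in the parental line, by log2 differences of 5.24 and 7.12. The other kept markers of that list, Col1a2 and Pdgfra, were not (0.12 and -0.14). The part of these markers in the differences of the parental line was not tested.

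The knockdown lines were also compared with each other, since their vectors differ. Line 2 against line 1 gave 0 calls among members and 0% of all probe sets in limma, with the spread taken from the 3 control lines, and 1 member probe set, of Lrp5, had an unadjusted p under 0.05, against 2.52% of all. Line 2 was at least 1.5-fold above line 1 for Lef1 and Wnt6 (4.24% of all genes) and at least 1.5-fold below for Lrp5 (3.65%). For Dkk1, line 2 was above line 1 by 0.34 on the log2 scale, and for Axin2 it was below by a difference of -0.33. The knockdown line with the lower signal thus differed between these 2 genes.

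The wider pathway, 104 further genes listed by role, gave 99 genes on the array and 57 past the filter. In limma 0 passed between the arms, and 3 of the 57 had an unadjusted p under 0.05, against 4.66% of all genes. Both knockdown lines were below all controls for 9 of the 57 (15.8%, against 10.2% of all genes) and above for 4 (7.02%, against 12.7%), and the median log2 change was -0.02. Id2, which blocks DNA binding by helix-loop-helix factors and also responds to other pathways, had 4405, 1995 and 1461 in the controls against 802 and 1036 (log2 change -1.36, SE 0.48, adjusted p = 0.879 in limma). Parental cells stood far above the others, and without it the value was -0.91. Ccdc88c, a Dishevelled-binding protein, had 124, 108 and 95.9 against 84.5 and 29.6 (log2 change -1.12, SE 0.45), which was -0.36 without knockdown line 2 and -1.87 without line 1.

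Above all controls, Bcl9, a beta-catenin cofactor, had 80.9, 89.9 and 54.0 against 102 and 109 (log2 change 0.53, SE 0.25), and 0.31 without the EGFP knockdown line. Lgr5, a receptor for R-spondins and a known Wnt target, had 726, 933 and 795 against 1334 and 939 (log2 change 0.46, SE 0.22). Knockdown line 2 was next to the empty vector line, and the value was 0.21 without line 1 and 0.71 without line 2. Lgr5 therefore lay the opposite way from Axin2 and Dkk1 among the known targets. Ccnd1, which encodes cyclin D1 and was chosen after its values were seen, had 6285, 6147 and 6361 against 5376 and 5546. The 3 kept probe sets of Ccnd1 had log2 changes of -0.20 (SE 0.13), -0.44 (SE 0.13) and -0.25 (SE 0.13), each without overlap. Myc, another listed target, had a log2 change of 0.0041 (SE 0.22).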

How the data were processed

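Total RNA from 5 Neuro2A lines was measured on 1 Affymetrix array each. The deposited values are linear intensity values per probe set, and the submitters' processing notes name MAS5, Affymetrix's summary method. The version used is not given in the sources here. Each array had a mean signal of 500.0 after 2% was trimmed at each end, a common scale set before deposit. Of 45101 probe sets, 64 controls were left out. The platform annotation gave 34945 of the others 1 gene symbol, 932 several and 9160 none, and only those with 1 were named. Detection calls were not used here.

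The deposited intensities were taken as log2 with no further scaling and fitted with limma 3.58.1 in R 4.3.3 (lmFit and eBayes, prior df 2.48) over the 22519 probe sets at or above the median mean log2 signal. Knockdown minus control and parental minus vector-carrying lines had 3 residual df, and knockdown line 2 minus line 1 had 2. P-values were adjusted by Benjamini-Hochberg over all kept probe sets. The steps were tested on simulated data. Alternatives were other scalings, filters, an offset, a trend in the prior variance, other probe sets and leaving out each array.

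All members are accounted for. Values in every line were given for up to 5 members each way with the largest change among those with both knockdown lines outside the controls, the 8 with the largest range over lines, the brightest of each role group, and Dkk1, Axin2, Lef1, Ctnnb1 and Wls whatever their values. The wider pathway gave the 2 genes each way with the largest change without overlap, and Kdm7a checked the knockdown. The remaining members are given by their signals or signal ranges, the dim ones partly by group. Ccnd1 was added after its values were seen. The members, lists and rules were chosen with earlier results of these data known. Promoter windows came from RefSeq, which gave windows for 15 of the 28 members.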

Additional observations from a re-analysis of the deposited data

How the results depend on the processing

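Of 29 named log2 values, 23 kept their direction in every setting run and 6 reversed in some. This count was partly fixed by the choice of genes and does not measure robustness. Leaving out 1 array cannot reverse a gene with both knockdown lines outside all controls, or a parental line that was highest or lowest. Many of the values were named for lying in this way. With another probe set, Fzd2 was 0.30 and Fzd3 was -0.06, -0.04 and -0.23. With 1 array left out, Lef1 ran from -1.02 to 0.27 (positive also, at 0.14, when knockdown line 1 was the one removed), Lrp5 from -0.92 to 0.22, Ryk from -0.13 to 0.0011 and Sfrp1 from -0.23 to 0.28. Sfrp1 was -0.01 after quantile normalization, -0.0028 after median centring, -0.0044 after cyclic loess, and -0.06 without knockdown line 2. The cause was not tested.

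Calls among Wnt members stayed at 0 in every setting of the 3 comparisons, and the smallest adjusted p of a member between knockdown and control in limma ran from 0.379 with no filter to 1. Over all probe sets, a variance trend with robust fitting gave 2 calls between knockdown and control and 1 between the knockdown lines, and a filter at the 70th percentile gave 1 between the knockdown lines. For the parental line, the 28 calls became 0 after quantile normalization, 0 with no filter, 0 at the 70th percentile, 8 with an offset of 32, 342 with the trend and robust fit, 197 at an adjusted p under 0.1, and 0 to 0 when 1 array was left out. The 8 members on one side of all controls became 12 to 14 when 1 array was left out, and over kept probe sets the count was 18 of 55, against 22.8% of all kept probe sets. No paired analysis was possible because the labels pair no knockdown line with a control line. The trend and robust fit was only an alternative. An earlier account of these data found that it made calls in simulated data with nothing changed. Signals near the filter, as for Wnt7a, Lrp5, Wnt11 and Sfrp1, limit what can be read from those genes.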
